A study of Mus musculus with 12 samples.

Results

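Complement is a set of plasma and tissue proteins that tags cells and debris for removal. Genes of this system were followed here in 1-month-old mouse brain, namely the chains of the recognition molecule C1q (*C1qa*, *C1qb*, *C1qc*), the protease gene *C1ra*, the central components *C4b*, *C3* and *Cfb*, the C1 inhibitor gene *Serping1* and the C3a receptor gene *C3ar1*. They are 9 of 55536 annotated genes, were matched by gene name and were chosen with earlier results of these data known. RNA-Seq libraries came from the cerebellum (CB) and cerebral cortex (CX) of WT and *Snx14*-KO mice, with 3 libraries for each tissue and genotype and 12 in all. The *Snx14*-KO line was made on C57BL/6J by Cas9 injection into fertilized eggs, carries a small *Snx14* indel in every cell, was backcrossed to WT C57BL/6J mice and was compared with WT littermates. The libraries are of whole tissue, labelled as a mix of cell types, and the mouse numbers 1 to 3 of a genotype occur in both tissues.

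Complement starts by several routes. In the classical route C1q binds a surface and the protease C1r activates the protease C1s. C1s cuts C4 and C2, and the resulting enzyme cuts C3, while factor B (*Cfb*) forms the C3-cutting enzyme of the alternative route. The C1 inhibitor stops C1r and C1s, and C3ar1 senses the C3a fragment that C3 cleavage releases. In brain, microglia are known as the main source of C1q, astrocytes and other cells can make C3 and C4, and C1q and C3 are known for their part in synapse removal during development.

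The 3 C1q genes lie side by side on the minus strand of chromosome 4 in GRCm38, *C1qb* (ENSMUSG00000036905.8) at chr4:136880129-136886187, *C1qc* (ENSMUSG00000036896.5) at chr4:136889804-136893065 and *C1qa* (ENSMUSG00000036887.5) at chr4:136895917-136898803. *C4b* (ENSMUSG00000073418.4, chr17:34728380-34743882), *Cfb* (ENSMUSG00000090231.10, chr17:34856374-34862518) and *C3* (ENSMUSG00000024164.15, chr17:57203970-57228136) are on the minus strand of chromosome 17. *C1ra* (ENSMUSG00000055172.10, chr6:124512405-124523443) is on the plus strand of chromosome 6, *C3ar1* (ENSMUSG00000040552.8, chr6:122847138-122856161) on its minus strand, and *Serping1* (ENSMUSG00000023224.12, chr2:84765387-84775444) on the minus strand of chromosome 2. Of the 2825 exon bases of *Cfb*, 79.5% are also exon sequence of *Gm20547* on the same strand, so *Cfb* counts are uncertain. *C4b* has a near-identical copy, *C4a*, with 5 to 14 counts per library, and read pairs that fit both genes were dropped, so *C4b* counts are a part of what the pair yields.

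RefSeq windows from 250 bases before to 50 after the start (GRCm38.p6) were found for 5 of the 9 genes: *C1qb*, *C1qc*, *C3ar1*, *C1ra* and *C3*. The bases before the annotated gene are shown for *C1qb*, *C1qc* and *C3ar1*, whose levels moved together over the libraries, and for *C3*, the member with the largest difference between WT tissues. They are chr4:136886201-136886450, chr4:136893066-136893164, chr6:122856162-122856407 and chr17:57228137-57228386, each on the minus strand and 5′ to 3′. Capitals mark a match to a motif searched on both strands.
C1qb: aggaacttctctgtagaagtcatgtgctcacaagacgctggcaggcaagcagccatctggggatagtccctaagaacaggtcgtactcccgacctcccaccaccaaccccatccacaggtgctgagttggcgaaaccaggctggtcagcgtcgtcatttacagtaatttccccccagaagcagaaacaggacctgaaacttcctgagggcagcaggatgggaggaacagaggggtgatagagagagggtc
C1qc: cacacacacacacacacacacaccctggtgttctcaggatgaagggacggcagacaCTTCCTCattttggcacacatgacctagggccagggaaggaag
C3ar1: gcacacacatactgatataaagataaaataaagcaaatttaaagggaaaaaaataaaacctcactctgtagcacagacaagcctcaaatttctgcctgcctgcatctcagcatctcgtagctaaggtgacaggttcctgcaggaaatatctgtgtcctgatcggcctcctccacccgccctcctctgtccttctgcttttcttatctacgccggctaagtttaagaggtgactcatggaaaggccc
C3: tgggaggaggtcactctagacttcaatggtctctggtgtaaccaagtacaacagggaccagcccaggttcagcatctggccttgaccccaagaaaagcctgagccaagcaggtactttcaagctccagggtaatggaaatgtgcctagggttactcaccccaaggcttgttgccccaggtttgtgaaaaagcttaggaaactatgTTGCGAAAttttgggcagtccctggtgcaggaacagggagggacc
The capitals in *C1qc* match the PU.1-type motif GAGGAAG (its complement, at -194 from the RefSeq start), which 13.6% of all 32851 windows hold. Those in *C3* match the C/EBP-type motif TTGCNNAA at -45, held by 10.8% of windows, and *C1ra* has a match to the same motif after its start. *C1ra* also holds the STAT-type motif TTCNNNGAA, present in 8.3% of windows. The interferon-response core GAAANNGAA, in 8.56% of windows, was in none of the 5. Matches to other motifs did not overlap these capitals.

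Between 16672589 and 19887427 read pairs per library were counted on genes, 16790722 to 17596170 in WT and 17197004 to 19887427 in *Snx14*-KO cerebella, and 18732065 to 19677417 in WT and 16672589 to 18870037 in *Snx14*-KO cortices. Values are given as TMM-normalized counts scaled to library size (CPM), or as TPM, which also divides by gene length, where genes are compared with each other. *Snx14* was at 63.6 to 67.0 CPM in WT and 10.4 to 11.2 CPM in *Snx14*-KO cerebella, and at 53.6 to 59.8 against 7.69 to 8.503 CPM in cortices, so every library matched its genotype label. Cerebellar neuron genes summed to 5131 to 7045 CPM in the cerebella and 319 to 374 in the cortices, and cortical neuron genes to 185 to 264 against 3413 to 4268 CPM, so every library matched its tissue label. A gene was called at an adjusted p under 0.05 with an absolute log2 fold change (here log2 difference) over 0.50, by the quasi-likelihood test of edgeR, with p-values adjusted over all genes tested (Benjamini-Hochberg).

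In WT brain, the C1q chains were by far the most abundant of the 9 transcripts per length. In WT cerebellum, *C1qa* was at 80.3 ± 15.1 TPM (SD, n = 3), *C1qb* at 71.0 ± 12.9, *C1qc* at 34.0 ± 7.08, *Serping1* at 17.3 ± 3.83, *C4b* at 8.04 ± 1.92, *Cfb* at 3.36 ± 0.143, *C3ar1* at 1.46 ± 0.372, *C3* at 0.871 ± 0.650 and *C1ra* at 0.723 ± 0.417 TPM. The libraries of neighbours in this order overlapped for *C1qa* and *C1qb*, for *C3ar1* and *C3* and for *C3* and *C1ra*, and were apart for the other neighbours. In WT cortex, the order was *C1qa* at 136 ± 1.31 TPM (SD, n = 3), *C1qb* at 131 ± 8.96, *C1qc* at 61.3 ± 2.77, *C4b* at 5.75 ± 0.965, *Serping1* at 4.92 ± 1.14, *Cfb* at 4.52 ± 0.613, *C3ar1* at 1.63 ± 0.105, *C1ra* at 1.51 ± 0.761 and *C3* at 0.122 ± 0.0351 TPM. There the libraries overlapped between *C1qa* and *C1qb*, among *C4b*, *Serping1* and *Cfb*, and between *C3ar1* and *C1ra*. *C3*, the protein on which all routes meet, was thus last in cortex, with 3, 5 and 3 read pairs in the WT libraries.

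The chains of C1q kept nearly the same proportions to each other in all 12 libraries. Of their summed TPM, *C1qa* made up 40.4 to 47.6%, *C1qb* 33.3 to 41.3% and *C1qc* 17.1 to 21.6%.

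The first comparison was of the WT tissues, and it gives the regional levels that the genotype comparisons start from. *C1qa*, *C1qb* and *C1qc* were lower, and *Serping1* and *C3* higher, in cerebellum than in cortex. Of the 9 genes, 2 were called higher, where 19% of the 18543 genes tested were, and 3 lower, where 21.4% were, so the members were called about as often as genes at large. *C1qa* was at 22.5, 31.4 and 22.1 CPM in WT cerebella 1, 2 and 3 and at 43.9, 44.9 and 45.3 CPM in the WT cortices. Every cerebellum lay below every cortex, with a log2 difference of -0.81 (SE, the standard error, 0.125, adjusted p = 0.000257). *C1qb* was at 20.8, 28.9 and 20.6 CPM in the cerebella and 45.4, 47.5 and 42.1 CPM in the cortices, a log2 difference of -0.94 (SE 0.126, adjusted p = 9.91e-05). *C1qc* was at 18.8, 25.0 and 15.9 CPM in the cerebella and 38.0, 36.2 and 38.4 CPM in the cortices, a log2 difference of -0.91 (SE 0.139, adjusted p = 0.000252). In each of these chains the highest cerebellum, replicate 2, stayed below the lowest cortex. These edgeR fits took the tissues as unpaired. Under other settings of edgeR or DESeq2, the mouse as a block among them, the adjusted p reached at most 0.0274 for *C1qa*, 0.0216 for *C1qb* and 0.0257 for *C1qc*.

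All 18 microglia marker genes measured were called lower in WT cerebellum too, as were 21.4% of all genes tested. The median log2 difference of the 18 was -1.41, against 0.02 for all genes tested. *P2ry12*, a purinergic receptor of resting microglia, differed by -2.05 (SE 0.120), *Tmem119* by -1.67 (0.174), the fractalkine receptor gene *Cx3cr1* by -1.75 (0.0977) and the growth factor receptor gene *Csf1r* by -1.30 (0.0889) on the log2 scale. *Trem2*, a lipid receptor, differed by -1.03 (SE 0.161), the lysosomal protein gene *Cd68* by -1.40 (0.257) and *Aif1*, which encodes Iba1, by -1.43 (0.205). In whole tissue, fewer microglia and less of these RNAs per microglial cell cannot be told apart. Per unit of 4 core microglia genes (*Cx3cr1*, *P2ry12*, *Tmem119* and *Csf1r* summed), the summed CPM of the C1q chains was 0.761, 0.876 and 0.714 in WT cerebella and 0.484, 0.461 and 0.532 in WT cortices. The cerebella thus held more C1q RNA per unit of these genes than the cortices, with no overlap.

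*Serping1* went the other way. It was at 10.01, 15.5 and 11.1 CPM in WT cerebella and at 4.20, 3.92 and 2.73 CPM in WT cortices, with a log2 difference of 1.75 (SE 0.219, adjusted p = 5.64e-05) and no overlap. *C3* was at 0.612, 0.981 and 2.42 CPM in WT cerebella and at 0.159, 0.268 and 0.171 CPM in WT cortices, a log2 difference of 2.71 (SE 0.617, adjusted p = 0.00338). These are 73 read pairs against 11, a ratio of 6.77 per library size with an exact 95% counting interval of 3.57 to 14.2. That interval holds the sampling of reads only and leaves out differences between mice. Without WT cerebellum replicate 3 the log2 difference was 1.96. That library, the highest in *C3*, also held the most choroid plexus RNA, with 11 markers summing to 85.0, 2788 and 7577 CPM in WT cerebella 1, 2 and 3 and to 17.6 to 143 CPM in WT cortices. Meningeal fibroblast genes summed to 222 to 437 CPM in the WT cerebella and 147 to 205 CPM in the WT cortices, and the part of either tissue in the *Serping1* and *C3* differences was not tested.

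The other 4 genes were not called between the WT tissues. *Cfb* was at 3.06, 2.89 and 2.68 CPM in cerebella and 4.30, 4.35 and 3.47 CPM in cortices, a log2 difference of -0.49 (SE 0.194, adjusted p = 0.0531), and its libraries did not overlap. With *Cfb*, 4 genes lay fully below and 2 fully above the cortices, where 32.7% and 31.6% of all genes did. *C4b* was at 10.3, 16.8 and 14.4 CPM against 11.96, 9.02 and 10.1 CPM, a log2 difference of 0.42 (SE 0.187, adjusted p = 0.0758). *C1ra*, at 0.222, 0.923 and 0.805 CPM against 0.850, 1.18 and 2.28 CPM, differed by -1.13 (SE 0.520, adjusted p = 0.0883). It was called with the replicate number as a block (-1.15, SE 0.416, adjusted p = 0.0421), without a filter on low counts (adjusted p = 0.0287) and with sex as a covariate (adjusted p = 0.0307), but not by DESeq2 (adjusted p = 0.123) or with any 1 library left out (adjusted p from 0.0616 to 0.374). *C3ar1*, the C3a receptor, was at 1.501, 2.48 and 1.72 CPM against 2.28, 2.09 and 2.28 CPM, a log2 difference of -0.22 (SE 0.263, adjusted p = 0.496). *C1ra*, *Cfb* and *C3ar1* rest on 4 to 81 read pairs per library here. Without WT cerebellum replicate 1, *C4b* differed by 0.60 and was called (adjusted p = 0.00760), while without WT cerebellum replicate 2 it differed by 0.26 (adjusted p = 0.287), and *Cfb*, by -0.60, was called without WT cortex replicate 3 (adjusted p = 0.0395).

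**Figure D1:**
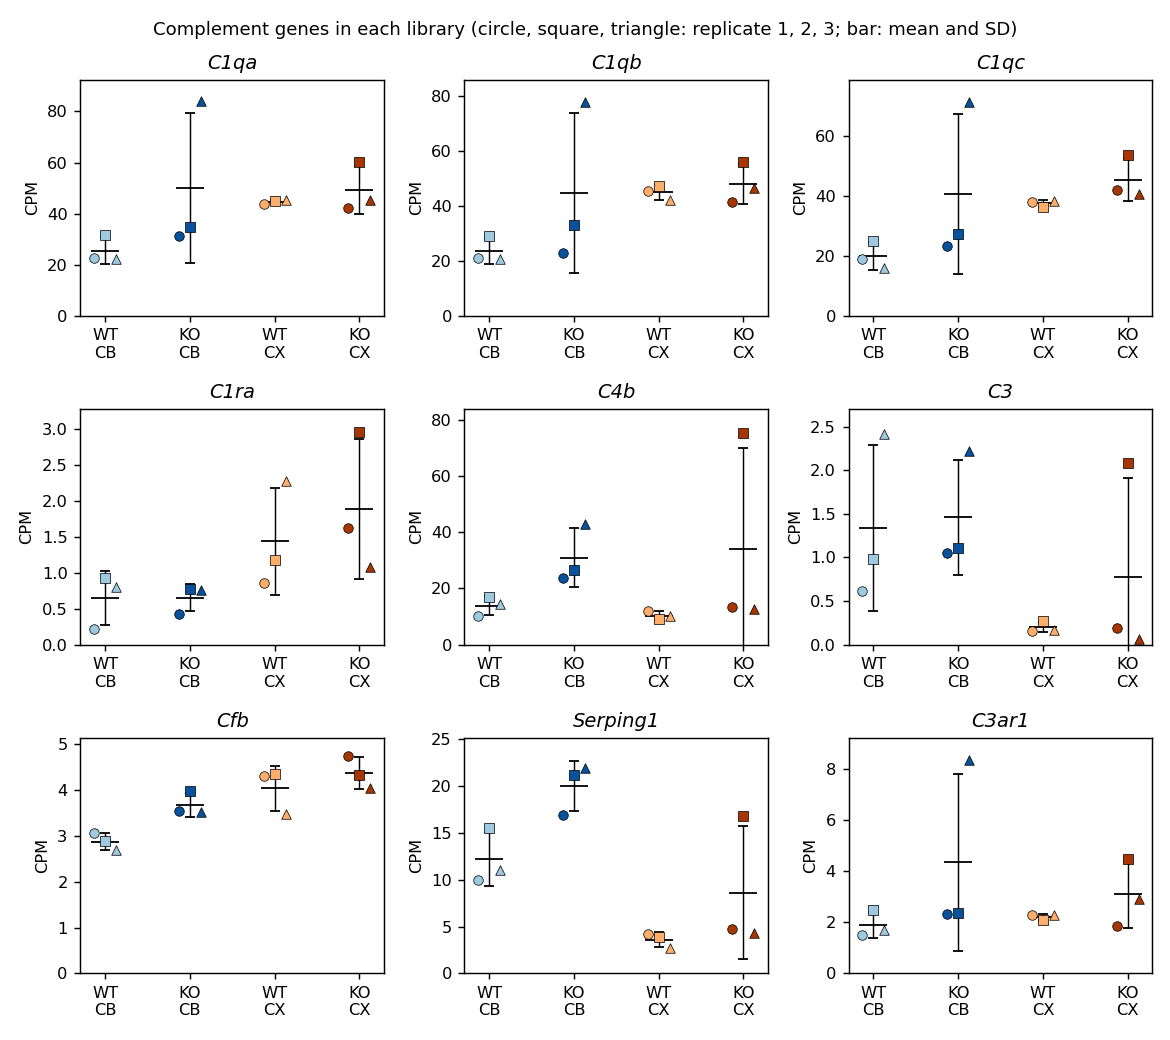
TMM-normalized CPM of the 9 complement genes in each of the 12 libraries (vertical axes in CPM from 0, a scale of its own for each gene), with WT and *Snx14*-KO (KO) cerebellum in blues and WT and KO cortex in oranges; horizontal bars are means and vertical bars SD (n = 3), cut at 0. *Snx14*-KO cerebellum replicate 3 is the highest cerebellum for the C1q chains, *C3ar1*, *C4b* and, by little, *Serping1*, and *Snx14*-KO cortex replicate 2 is the highest cortex for every gene but *Cfb*.

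The second comparison was of *Snx14*-KO with WT cerebellum. All 9 genes had a log2 difference above 0 (49.9% of the 18201 genes tested did), with a median of 0.95 against -0.000616 for all genes tested. None was called, and edgeR called 0% of all genes higher. Without *Snx14*-KO cerebellum replicate 2 edgeR called 244 genes higher, and without WT cerebellum replicate 2 it called 9, with no member among them. At an unadjusted p under 0.05, 6 of the 9 were higher, where 5.78% of genes were: *C4b*, *Serping1*, *C1qa*, *C1qc*, *C1qb* and *C3ar1*. DESeq2 at the same thresholds called *C4b* (adjusted p = 5.80e-05) and *Serping1* (adjusted p = 0.0199) higher, 2 of the 9, where it called 0.76% of the genes to which it gave an adjusted p. The *Snx14*-KO libraries lay above all WT libraries for 3 genes, *C4b*, *Serping1* and *Cfb*, where 6.22% of all genes did so.

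*C4b*, the gene of the component that C1s cuts, had the smallest p of the 9. It was at 10.3, 16.8 and 14.4 CPM in WT and at 23.7, 26.5 and 43.0 CPM in *Snx14*-KO cerebella. The highest WT library stayed below the lowest *Snx14*-KO library, with a log2 difference of 1.18 (SE 0.250, adjusted p = 0.203). *Serping1* was at 10.01, 15.5 and 11.1 CPM in WT and 16.9, 21.1 and 21.9 CPM in *Snx14*-KO cerebella, a log2 difference of 0.73 (SE 0.182, adjusted p = 0.271). These groups were also apart, with replicate 2 the highest of the WT libraries. *Cfb* was at 3.06, 2.89 and 2.68 CPM in WT and 3.54, 3.97 and 3.52 CPM in *Snx14*-KO cerebella, a log2 difference of 0.37 (SE 0.193, adjusted p = 0.717), from 50 to 74 read pairs per library. *Cfb* was the steadiest of the 9, with a coefficient of variation of 6.49% within WT and 6.92% within *Snx14*-KO cerebella.

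The C1q chains were highest by far in 1 of the 3 *Snx14*-KO cerebella. *C1qa* was at 22.5, 31.4 and 22.1 CPM in WT and at 31.3, 34.8 and 84.0 CPM in *Snx14*-KO cerebella. *Snx14*-KO replicate 3 was 2.54 times the mean of the other 2, and replicate 1 lay just under the highest WT library, so the groups overlapped. Its log2 difference was 1.00 (SE 0.348, adjusted p = 0.455). *C1qb* was at 22.9, 33.2 and 78.1 CPM in *Snx14*-KO cerebella against 20.8, 28.9 and 20.6 CPM in WT, a log2 difference of 0.95 (SE 0.389, adjusted p = 0.558). *C1qc* was at 23.4, 27.1 and 71.4 CPM against 18.8, 25.0 and 15.9 CPM, a log2 difference of 1.05 (SE 0.389, adjusted p = 0.491). *C3ar1* had the same shape, at 2.34, 2.37 and 8.34 CPM in *Snx14*-KO and 1.501, 2.48 and 1.72 CPM in WT cerebella, a log2 difference of 1.21 (SE 0.507, adjusted p = 0.571). Without *Snx14*-KO replicate 3, the log2 differences were 0.39, 0.26, 0.34 and 0.31 in the same order.

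*C1ra* and *C3* did not separate the genotypes. *C1ra* was at 0.430, 0.772 and 0.758 CPM in *Snx14*-KO and 0.222, 0.923 and 0.805 CPM in WT cerebella, a log2 difference of 0.01 (SE 0.538, adjusted p = 0.998). *C3* was at 1.05, 1.10 and 2.22 CPM against 0.612, 0.981 and 2.42 CPM, a log2 difference of 0.13 (SE 0.529, adjusted p = 0.983). Both rest on 4 to 45 read pairs per library. The directions of both turned negative when single libraries were left out.

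Without *Snx14*-KO replicate 3, 3 of the 9 were at an unadjusted p under 0.05 (3.27% of genes were), 7 were above 0 and the median was 0.34. Without WT replicate 1 it was 2 of 9 (4.9% of genes), and without WT replicate 3 it was 3 of 9 (5.38%), and it was 6 of 9 (5.11 to 7.24%) without each of the remaining libraries. *C4b* then ranged from 0.86 to 1.34 and *Serping1* from 0.60 to 0.94 on the log2 scale, and neither was called (adjusted p from 0.0679 to 0.666 and from 0.168 to 0.916).

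**Figure D2:**
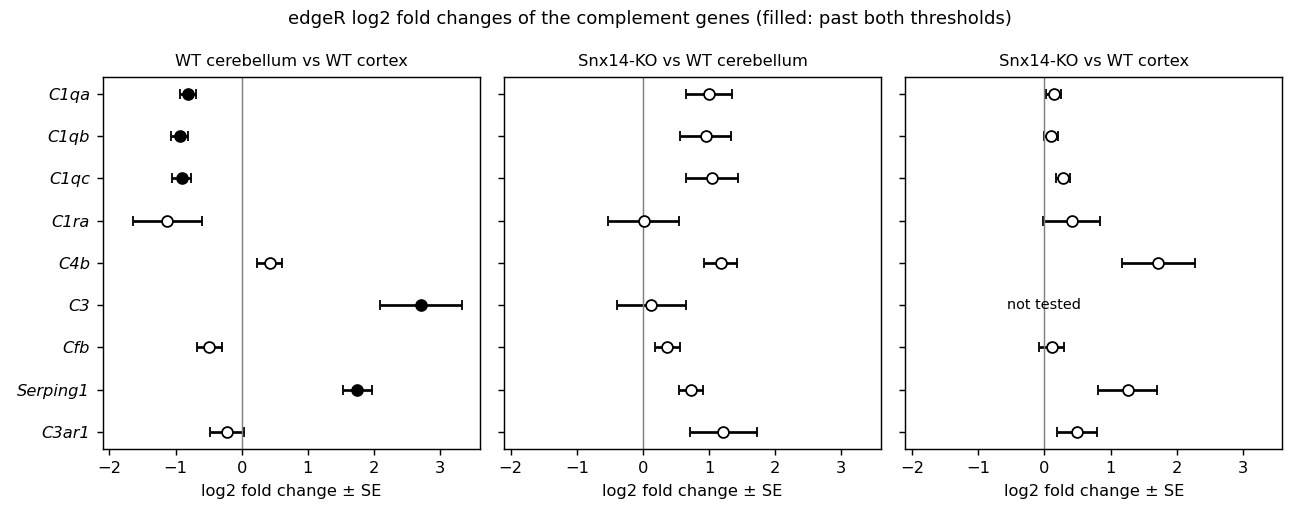
Log2 differences from edgeR (points, with bars of 1 SE) of the 9 genes in 3 comparisons, with filled points for calls. Calls were made only between the WT tissues, for *C1qa*, *C1qb*, *C1qc*, *C3* and *Serping1*, and all points for *Snx14*-KO against WT lie above 0 in both tissues.

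Other cell markers also moved in *Snx14*-KO cerebella, some of them most in replicate 3 and others not. The 18 microglia genes were all above 0 in *Snx14*-KO cerebella, with a median of 0.62 and 8 at an unadjusted p under 0.05, where 49.9% and 5.78% of all genes tested were. They summed to 252 to 303 CPM in WT and to 287, 307 and 710 CPM in *Snx14*-KO replicates 1, 2 and 3. In replicate 3, *Cd68* was at 27.8 CPM (4.84 times the mean of the other 2) and *Trem2* at 29.0 CPM (3.50 times), while *P2ry12*, at 18.9 CPM, was 1.35 times and *Tmem119*, at 12.1 CPM, 1.31 times. C1q thus exceeded the other 2 libraries by less than *Cd68* and by more than *P2ry12*. The summed chains per unit of core microglia genes stood at 0.785, 1.02 and 1.39 in *Snx14*-KO cerebella, the last above every other library.

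Border macrophage genes summed to 15.7 to 24.0 CPM in WT and 33.9 to 52.4 CPM in *Snx14*-KO cerebella, with all 8 tested above 0 and 7 at an unadjusted p under 0.05. The shares of all genes tested, for this list and the next ones, were 49.9% and 5.78%. Meningeal fibroblast genes summed to 222, 437 and 422 CPM in WT and to 639, 599 and 628 CPM in *Snx14*-KO cerebella, with all 16 tested above 0 and 13 at an unadjusted p under 0.05. Astrocyte genes summed to 8009 to 8740 CPM in WT and 8766 to 9280 CPM in *Snx14*-KO cerebella, with 10 of 12 above 0 and 6 at an unadjusted p under 0.05. Genes of reactive astrocytes summed to 578 to 604 CPM in WT and to 667, 804 and 1349 CPM in *Snx14*-KO cerebella, with all 17 above 0 and 10 at an unadjusted p under 0.05. Interferon response genes were at 364 to 425 CPM against 396, 403 and 572 CPM, with 19 of 21 tested above 0 and 6 at an unadjusted p under 0.05. Genes of blood myeloid cells, at low levels, summed to 2.19 to 2.47 CPM in WT and to 3.87, 10.3 and 5.58 CPM in *Snx14*-KO cerebella, with all 4 tested above 0 and at an unadjusted p under 0.05. Each of these lists was without overlap between genotypes in summed level, other than the microglia and interferon lists, and no gene of these lists was at 0 in all libraries of a group. Their part in the *C4b*, *Serping1* and C1q differences was not tested.

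**Figure D3:**
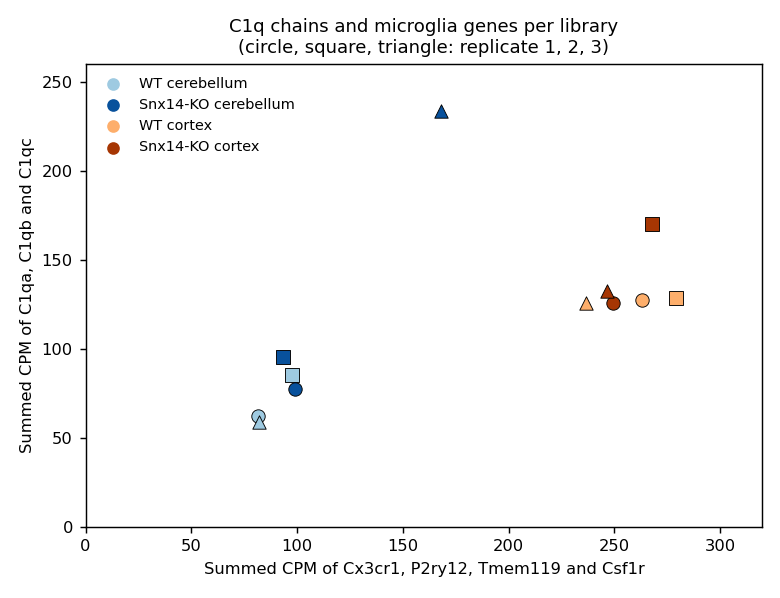
Summed CPM of *C1qa*, *C1qb* and *C1qc* (vertical) against the summed CPM of 4 core microglia genes (horizontal), with 1 point per library. WT cerebella lie at the lower left and the cortices at the right, while *Snx14*-KO cerebellum replicate 3 has the most C1q, 234 CPM, at a sum of 168 CPM for these 4 genes, under that of all cortices, while its sum over all 18 microglia genes, 710 CPM, lay within the 616 to 739 CPM of the cortices.

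In cortex, the third comparison tested 18255 genes, among them 8 of the 9, since *C3* had too few counts. All 8 were above 0, where 50% of genes were, with a median of 0.34 against 8.19e-05 for all genes tested. edgeR called none of them and 0% of genes higher, and DESeq2 called none of the 9, where it called 0.0238% of genes higher, leaving *C3*, *C3ar1*, *C1ra* and *Cfb* without an adjusted p. At an unadjusted p under 0.05, 3 of the 8 were higher (*C4b*, *Serping1* and *C1qc*), where 2.24% of genes were, and in the same 3 all *Snx14*-KO libraries lay above all WT libraries, as they did for 4.57% of genes.

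*C4b* was at 11.96, 9.02 and 10.1 CPM in WT and at 13.5, 75.5 and 12.8 CPM in *Snx14*-KO cortices. Replicate 2 was 5.74 times the mean of the other 2, both of which lay a little above the highest WT library. The log2 difference was 1.72 (SE 0.550, adjusted p = 0.996) and, without replicate 2, 0.34. *Serping1* was at 4.20, 3.92 and 2.73 CPM in WT and 4.69, 16.8 and 4.35 CPM in *Snx14*-KO cortices, a log2 difference of 1.26 (SE 0.444, adjusted p = 0.996) that was 0.32 without replicate 2. *C3* had 3, 5 and 3 read pairs in WT and 3, 38 and 1 in *Snx14*-KO cortices, a level in replicate 2 that was 17.1 times that of replicates 1 and 3 together (exact 95% counting interval 6.15 to 65.9, for read sampling only and for a library picked as the highest). So the 3 genes share 1 high library.

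The C1q chains differed by 0.28 or less on the log2 scale between genotypes in cortex. *C1qa* was at 43.9, 44.9 and 45.3 CPM in WT and 42.3, 60.0 and 45.2 CPM in *Snx14*-KO cortices, a log2 difference of 0.14 (SE 0.115). *C1qb*, at 45.4, 47.5 and 42.1 against 41.4, 56.0 and 46.7 CPM, differed by 0.09 (SE 0.105) and *C1qc*, at 38.0, 36.2 and 38.4 against 41.9, 53.8 and 40.7 CPM, by 0.28 (SE 0.106). Replicate 2 was again the highest, by 1.27 to 1.37 times the mean of the other 2. *C3ar1* was at 2.28, 2.09 and 2.28 against 1.88, 4.50 and 2.92 CPM (log2 difference 0.49, SE 0.302), *C1ra* at 0.850, 1.18 and 2.28 against 1.63, 2.96 and 1.07 CPM (0.41, SE 0.432) and *Cfb* at 4.30, 4.35 and 3.47 against 4.75, 4.33 and 4.05 CPM (0.11, SE 0.189). Each of the 6 had an adjusted p of 0.996.

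Without *Snx14*-KO cortex replicate 2, 1 of the 8 had an unadjusted p under 0.05 (1.77% of genes had), 5 were above 0 and the median was 0.12. *C1qa* and *C1qb* were then at -0.03 and *C1ra* at -0.09. Without WT replicate 2 or WT replicate 3, the count was 2 of 8 (1.8% and 1.61% of genes).

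In replicate 2 the marker lists moved in a pattern only partly like that of *Snx14*-KO cerebellum replicate 3. Reactive astrocyte, interferon response and border macrophage genes and *Cd68* were highest in both libraries within their groups. The microglia sum of cortex replicate 2, 739 CPM, was near those of the other *Snx14*-KO cortices, 637 and 672 CPM, and of WT cortices, 616 to 711 CPM. *P2ry12*, at 39.7 CPM, and *Tmem119*, at 18.3 CPM, were at 0.740 and 0.735 times the mean of the other 2, while *Cd68*, at 14.6 CPM, was at 1.82 times. Its reactive astrocyte genes summed to 1344 CPM against 305 and 373 CPM in the other *Snx14*-KO cortices and 252 to 307 CPM in WT. Interferon response genes summed to 315 CPM against 240 and 235 CPM, and 218 to 242 CPM in WT. Cortical neuron genes summed to 3413 CPM against 4180 and 4139 CPM, and 3995 to 4268 CPM in WT. Border macrophage genes summed to 71.5 CPM against 23.5 and 29.3 CPM, meningeal fibroblast genes to 518 CPM against 194 and 189 CPM, blood myeloid genes to 4.44 CPM against 1.5005 and 1.25 CPM, and oligodendrocyte genes to 5626 CPM against 7298 and 8013 CPM. The part of these in the *C4b*, *Serping1* and *C3* values of that library was not tested.

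**Figure D4:**
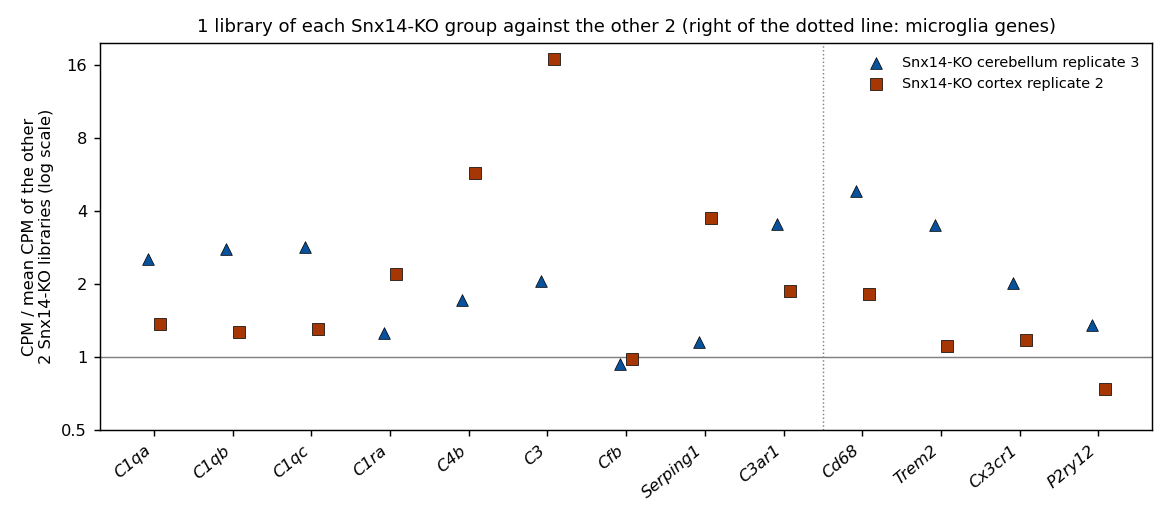
CPM of 1 *Snx14*-KO library over the mean CPM of the other 2 of its group (log axis), for cerebellum replicate 3 (triangles) and cortex replicate 2 (squares), with the complement genes left of the dotted line and 4 microglia genes right of it. The cerebellum library is high in *C3ar1* (3.54 times) and the C1q chains (2.54 to 2.83), and the cortex library in *C3* (16.9), *C4b* (5.74) and *Serping1* (3.73).

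**Figure D5:**
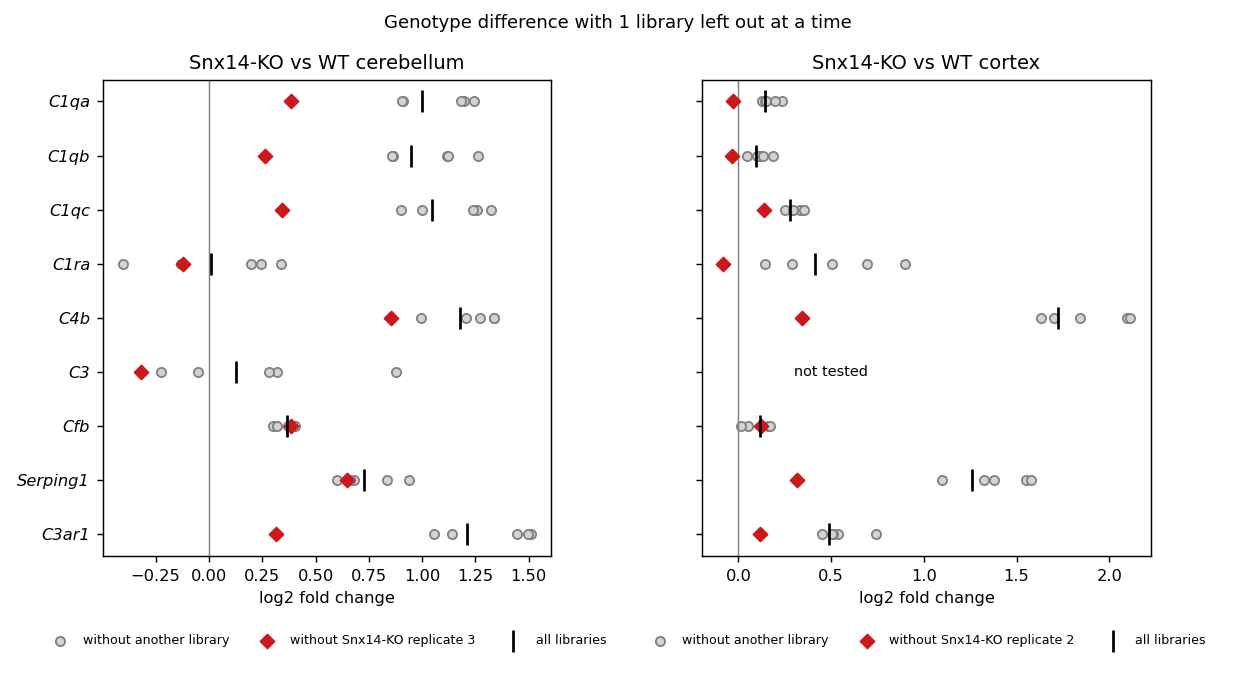
Log2 differences between *Snx14*-KO and WT with all libraries (black bars) and with 1 library left out (points; diamonds mark the library that stood apart). Without cerebellum replicate 3 the C1q chains and *C3ar1* stand at 0.26 to 0.39 and *C4b* at 0.86, and without cortex replicate 2 *C4b* stands at 0.34 and *Serping1* at 0.32.

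An interaction term, fitted to the 12 libraries for 19380 genes, asked whether the genotype difference itself differed between tissues. No member was called, by edgeR or by DESeq2, and none had an unadjusted p under 0.05, where 3.97% of genes did so with a larger difference in cerebellum and 1.71% with a smaller one. edgeR called 0% of all genes in either direction, and DESeq2 called 0.143% with a larger and 0.00433% with a smaller difference in cerebellum. The C1q chains and *C3ar1* had a larger difference in cerebellum by 0.84 for *C1qa* (SE 0.407, adjusted p = 0.910), 0.84 for *C1qb*, 0.75 for *C1qc* and 0.70 for *C3ar1* on the log2 scale. Without *Snx14*-KO cerebellum replicate 3 these were 0.24, 0.16, 0.06 and -0.18. *C4b*, at -0.56 (SE 0.742), *Serping1*, at -0.55 (0.561), *C3*, at -1.85 (1.24), and *C1ra*, at -0.41 (0.750), went the other way, and *Cfb* was at 0.24 (0.247), with an adjusted p of 1.00 for these 5. Without *Snx14*-KO cortex replicate 2, *C4b* stood at 0.82, *C3* at 0.79 and *Serping1* at 0.40, so the sign of these terms rested on that library.

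Over the 12 libraries, after each tissue's mean was subtracted from log2 CPM, the C1q chains and *C3ar1* varied together, and so did *C4b* and *Serping1*. The C1q chains correlated at 0.967 to 0.987 with each other and at 0.935 to 0.962 with *C3ar1*. *C4b* correlated at 0.966 with *Serping1*, at 0.754 with *C3ar1* and at 0.594 to 0.671 with the chains, and *Serping1* at 0.651 with *C3ar1*. *C1ra* reached at most 0.618 and *Cfb* at most 0.511 with any of these 8 members, and *C3* was left out, since it was not tested in cortex. The points share the 2 libraries named above, and the values are descriptions over n = 12.

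Among 17244 genes compared in the same way, the 3 with the highest correlation were named for each of the same 8 members, and those of the C1q chains included *Cd68*, *Fcrls* and *Trem2* of the microglia list. They were *Cd68* (r = 0.982), *Fcrls* (0.982) and *Irf8* (0.975) for *C1qa*, *Cd53* (0.980), *Trem2* (0.979) and *Fcrls* (0.973) for *C1qb*, and *Fcrls* (0.978), *Trem2* (0.973) and *P2ry6* (0.973) for *C1qc*. For *C4b* they were *Mrc1* (0.991), a mannose receptor gene of border macrophages, *Ifitm3* (0.983), which is induced by interferon, and *Tnfrsf1a* (0.977), and for *Serping1* *Mrc1* (0.969), *Hic1* (0.968) and *Ifitm3* (0.968). Those of *C3ar1* were *Ifit3* (0.973), *Naip2* (0.972) and *Gpnmb* (0.970), those of *Cfb* *Gnb4* (0.924), *Laptm4a* (0.910) and *Akirin2* (0.886), and those of *C1ra* *Kremen1* (0.925), *Gm45728* (0.894) and *Afdn* (0.888).

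The remaining complement pathway was read from a list of 52 further genes. In *Snx14*-KO against WT cerebellum, 29 of them were tested, 19 above and 10 below 0, with a median of 0.07. None was called by edgeR with all libraries, 2 were called higher without WT cerebellum replicate 2 and 1 without *Snx14*-KO cerebellum replicate 2. At an unadjusted p under 0.05, 6 were higher and 2 lower, where 5.78% and 2.37% of all genes were. *Vtn*, whose protein vitronectin blocks the terminal complex and which is also a pericyte marker, was at 51.0, 65.3 and 51.4 CPM in WT and 91.4, 81.4 and 88.5 CPM in *Snx14*-KO cerebella, a log2 difference of 0.66 (SE 0.103, adjusted p = 0.133). DESeq2 called it, and no other of the 52 genes. Like *C4b*, *Vtn* was above WT in all 3 *Snx14*-KO cerebella. Also among the smallest p were those of *Colec12*, a scavenger receptor with a collectin domain (log2 difference 0.38, SE 0.111, adjusted p = 0.367), and *Cd59a*, which protects cells from the terminal complex (-0.53, SE 0.1601, adjusted p = 0.386).

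In cortex, 29 of the 52 were tested, with 17 above and 12 below 0 and a median of 0.09, none called by edgeR or DESeq2 and 1 in each direction at an unadjusted p under 0.05, where 2.24% of all genes were higher and 2.26% lower. *Cd59a* was at 10.8, 11.01 and 9.34 CPM in WT and 8.25, 4.99 and 7.33 CPM in *Snx14*-KO cortices, a log2 difference of -0.60 (SE 0.183, adjusted p = 0.996). It was thus fully below WT in both tissues. *Vtn* (0.40, SE 0.176), *Colec12* (0.61, 0.291) and *Cd93*, a receptor of endothelial and myeloid cells (0.64, 0.308), followed at the same adjusted p.

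Between WT tissues 28 were tested, 7 called higher and 10 lower in cerebellum, where 19% and 21.4% of all genes were. The 6 with the smallest p were *Csmd1*, a large neuronal complement inhibitor gene (log2 difference -2.24, adjusted p = 2.44e-09), *Sez6* (-1.35, adjusted p = 1.92e-07) and *Csmd2* (-1.55, adjusted p = 2.36e-06) with related domains, *Cd59a* (2.01, adjusted p = 6.69e-07), *Itgam*, a chain of complement receptor 3 (-1.77, adjusted p = 1.70e-06), and *Colec12* (1.31, adjusted p = 1.46e-05). Of *Itgam*'s exon bases, 68.7% are shared with *Gm49368*. The genotype difference differed between tissues for none of 34 genes by either tool, and for 2 at an unadjusted p under 0.05, both larger in cerebellum, where 3.97% of all genes were. Of the terminal pathway genes, *C6*, *C8a*, *C8b* and *C9* had 3 to 20 read pairs over all 12 libraries together, *C7* had 65, *Hc*, the gene of C5, 121 and *C8g* 360.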

How the data were processed

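The authors trimmed reads, mapped them to GRCm38 with STAR, counted read pairs on GENCODE genes with featureCounts (Subread 2.0.1 in the submitters' processing notes) and deposited the raw counts, unstranded and without normalization. Read pairs with several mappings were dropped, and a pair over several genes was counted for each, which affects *Cfb* and *C4b*. Features other than genes (0.0506 to 0.0632% of counts) were left out. Of 55536 gene IDs, 55450 matched a gene name. Groups were compared with the quasi-likelihood test of edgeR 4.0.16 (R 4.3.3, TMM, filterByExpr), with DESeq2 1.42.0 as an alternative. Other alternatives were DESeq2-type size factors, no filter on low counts, 1 fit of all libraries, no minimum fold change, each library left out, a replicate block and, chosen after seeing the data, sex as a covariate and counts at an unadjusted p. CPM used TMM factors over the 12 libraries. Libraries differed by more than sampling noise (chi-square per gene of at least 6.42).

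The members and gene lists were chosen with earlier results of these data known. All 9 members are named in each comparison. Of the 52 other complement genes, those called (or the 6 of smallest p where more were) and the 4 of smallest p per genotype comparison are named, with the defining microglia genes, *Snx14*, and the 3 genes most correlated with each member. Some results that this rule would name are not reported here. The labels use the same mouse number in both tissues of a genotype, so tissues were read as paired by mouse. Same-numbered tissues of a genotype correlated at 0.0178 to 0.338 in their deviations from the group means (6 pairs), and other numbers at -0.265 to 0.155. Each mouse number 1 was female by *Xist* in both tissues. WT and *Snx14*-KO numbers name different mice.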

Additional observations from a re-analysis of the deposited data

How the results depend on the processing

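All 5 members called between the WT tissues were called under every alternative tried, with adjusted p from edgeR or DESeq2 of at most 0.0274. In the genotype comparisons the count of members called higher in cerebellum was 0 with edgeR, 2 with DESeq2 and 5 without a filter on low counts. In cortex it was 2 without the filter, and for the difference between tissues 3 without the filter. Testing every gene with a count also moved the count over all genes from 0. It became 329 of 31465 genes higher in cerebellum, 85 of 31561 in cortex and 349 of 34466 for the difference between tissues, and the cause was not tested. DESeq2 called 165 genes higher in cerebellum, 3 in cortex and 33 for the difference between tissues. Leaving out single libraries kept the count of members called at 0 in the genotype comparisons, and between WT tissues it ranged from 2 to 3 higher and from 3 to 4 lower.

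The count of members higher at an unadjusted p under 0.05 ranged from 2 to 6 in cerebellum and from 1 to 4 in cortex with 1 library left out, while 3.27 to 7.24% and 1.61 to 3.36% of all genes were. The replicate number as a block gave 3 of 9 in cerebellum, where 5.64% of all genes were. WT and *Snx14*-KO mice share only a number, and same-numbered libraries of a tissue correlated at -0.0917 to 0.0811. Between WT tissues the block was the mouse, and for the difference between tissues the mouse within its genotype, with no member called or at an unadjusted p under 0.05 in the latter. The block changed no other call but that of *C1ra* between WT tissues. For the difference between tissues, the count larger in cerebellum ranged from 0 to 5 with 1 library or 1 *Snx14*-KO mouse left out, and was 3 without the filter (4.06% of all genes) and 1 with sex as a covariate (3.94%). The count smaller in cerebellum ranged from 0 to 1, and was 3 without the filter (1.61% of all genes).

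Reversed directions concerned values that were not called. In cerebellum *C1ra* was at -0.00223 with all libraries in 1 fit, and ranged from -0.40 to 0.34, and *C3* from -0.32 to 0.88, with 1 library left out. In cortex *C1qa* ranged from -0.031 to 0.23, *C1qb* from -0.033 to 0.19 and *C1ra* from -0.085 to 0.90. For the difference between tissues, with 1 library or 1 *Snx14*-KO mouse left out, *C1qc* ranged from -0.011 to 1.11, *C1ra* from -0.90 to 0.083, *C3* from -2.81 to 0.96, *C4b* from -1.26 to 0.92, *Serping1* from -0.94 to 0.40 and *C3ar1* from -0.22 to 1.37.

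With few read pairs, the log2 differences of *C1ra* and *C3* in cerebellum had standard errors over 0.5.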

Other observations

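Neuronal genes with a C1q domain, which shape synapses and are not part of the complement cascade, were read from a list of 8. In cerebellum 6 were tested between genotypes, 3 above and 3 below 0, with 2 higher and 3 lower at an unadjusted p under 0.05 (5.78% and 2.37% of all genes), and the genes below were named after their values were seen. Levels of *Cbln1*, which bridges granule cell axons to Purkinje cells, were 612 ± 44.2 CPM (mean and SD, n = 3) in WT and 480 ± 69.6 CPM in *Snx14*-KO cerebella, with no overlap and a log2 difference of -0.34 (SE 0.105, adjusted p = 0.396 by edgeR's quasi-likelihood test). *Cbln3* was at 854 ± 89.5 against 686 ± 74.1 CPM (log2 difference -0.30, SE 0.1001, adjusted p = 0.430), and *C1ql3* at 16.5 ± 1.20 against 11.5 ± 1.44 CPM (-0.51, SE 0.128, adjusted p = 0.278). All 8 cerebellar neuron marker genes, *Cbln3* among them, were also below 0 in this comparison, with a median of -0.19, and summed to 5932 to 7045 CPM in WT and 5131 to 6756 CPM in *Snx14*-KO cerebella, and their part in these values was not tested. In cortex, *C1ql3* was at 103 ± 4.01 CPM in WT and 104 ± 14.3 CPM in *Snx14*-KO mice. Higher in *Snx14*-KO cerebella at an unadjusted p under 0.05 were *C1ql1*, at 6.08 ± 1.14 against 9.02 ± 2.38 CPM (log2 difference 0.58, SE 0.216, adjusted p = 0.487), and *Cbln4*, at 1.35 ± 0.276 against 3.81 ± 2.66 CPM (1.51, SE 0.550, adjusted p = 0.483). *Cbln2*, too low in cerebellum for the edgeR test, was at 0.278 to 0.430 CPM in WT and at 14.2, 0.386 and 18.0 CPM in *Snx14*-KO cerebella, and DESeq2 called it higher (adjusted p = 0.0198). Both genes were called lower in WT cerebellum than in WT cortex (log2 differences of -6.88 for *Cbln2* and -3.82 for *Cbln4*), and cortical neuron genes summed to 185 to 201 CPM in WT and to 264, 192 and 242 CPM in *Snx14*-KO cerebella 1, 2 and 3, whose part in these values was not tested. edgeR called none of the list in a genotype comparison, while 2 were called higher and 4 lower in WT cerebellum than in WT cortex, where 19% and 21.4% of all genes were.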
